A study of Mus musculus with 24 samples.

Results

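The genes described here are 10 of those that control whether a cell passes from the G1 phase, the gap before DNA synthesis, into the S phase. They are the D-type cyclins Ccnd1, Ccnd2 and Ccnd3, the E-type cyclins Ccne1 and Ccne2, the kinases Cdk4 and Cdk6, the inhibitors Cdkn1b (p27) and Cdkn1c (p57), and the transcription factor Myc. Their probes were found by matching the RefSeq transcript that the array design gives for each spot to the symbols of the mouse RefSeq gene table, without the use of any measured value. The matching gave 18 of the 56605 probes on the array and 10 of the 23787 genes with a symbol. The 10 genes themselves were chosen with earlier results of these data known. Cdk4 had 4 probes, Cdk6 had 3, and Ccnd2, Ccnd3 and Myc had 2 each. Unless another is named, a gene is described by its probe with the highest mean signal.

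Gene expression was measured in TM3 cells, an established line of mouse Leydig cells, with 1 array for each of 24 RNA samples in 6 groups of 4 biological replicates. Sham cells and cells exposed to a nanosecond pulsed electric field (nsPEF) were sampled at 0 h, 4 h and 24 h, and the field was given as 80 pulses of 60 ns at 5.5 kV and 14 kV/cm, with 26.4 pulses per minute over 180 s. All cells, sham included, were detached, washed, suspended in binding buffer, passed through a strainer and placed in a cuvette, so a change with time in sham is a change in handled cells, and arrays of undisturbed cultures were not analysed here. Culture in complete medium until 4 h and 24 h is described by the study for its cell cycle assay and not separately for the RNA. TM3 is a dividing culture of a single line, which limits it as a model of Leydig cells in the testis. Of the 8 Leydig cell markers with a probe, Star, Cyp17a1 and Nr5a1 were well above background on all 24 arrays, and Cyp11a1, Hsd3b1, Hsd3b6, Hsd17b3 and Lhcgr on 0. Among markers of other testis cells, Acta2, Cnn1, Csf1r, Cd68, Sox9 and Pecam1 were well above background on all 24 arrays, while Cdh5, Kdr, Gata1 and Dhh were on 0 and Ptprc and Adgre1 on 1. The RNA integrity number was 8.9 to 10.0.

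As background, D-type cyclins join Cdk4 or Cdk6 and E-type cyclins join Cdk2, and these pairs phosphorylate the retinoblastoma protein, which then lets E2F factors switch on the genes of DNA synthesis. Cdkn1b and Cdkn1c bind and block such pairs, and Cdkn1b rises in many cells that rest. Myc is induced early when resting cells are given serum and is known to favour the cyclins and kinases and to repress inhibitors.

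The values are log2 processed intensities relative to the 75th percentile of the same array, so 0 stands for that percentile. Differences are therefore relative to the bulk of the transcripts, and levels of different probes are not compared. A difference was called at an adjusted p under 0.05 from limma, adjusted by the Benjamini-Hochberg method over the 37687 probes that were well above background on at least 2 of 4 arrays of some group, and its error is a standard error (SE) with 4 arrays in each group. All 18 probes of the 10 genes passed that filter. Except for Ccne2 and Cdkn1c, every probe was well above background on all 24 arrays. P values measure the spread between these samples, and in bulk RNA fewer cells that express a gene and less of its RNA per cell cannot be told apart. Each time point was hybridised on its own slide of 8 arrays, with sham in the first and nsPEF in the second row of that slide. Effects of time and of slide therefore cannot be told apart, nor those of treatment and of array row.

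Promoter sequences from RefSeq (GRCm38.p6) are shown for Cdk4 and Cdk6, the partner kinases whose probes moved differently at 4 h, and for Cdkn1b and Ccnd3, which fell together. RefSeq entries were at hand for 5 of the 10 genes, and of the 2 starts of Ccnd3 the first is shown. The annotated start used for Cdk6 lies inside the gene, which begins at base 3341004 of chr5. Each sequence is the 250 bases before the annotated start, 5′ to 3′ on the strand of the gene, and capitals mark matches on either strand to the E-box CACGTG (bound by Myc with Max), the Sp1 motif GGGCGG or the forkhead motif GTAAACA. The AP-1 motif TGACTCA and the E2F motifs TTTCGCGC, TTTGGCGC and TTTCCCGC were searched as well and gave no match in these windows.
Cdk4, chr10:127063285-127063534, plus strand: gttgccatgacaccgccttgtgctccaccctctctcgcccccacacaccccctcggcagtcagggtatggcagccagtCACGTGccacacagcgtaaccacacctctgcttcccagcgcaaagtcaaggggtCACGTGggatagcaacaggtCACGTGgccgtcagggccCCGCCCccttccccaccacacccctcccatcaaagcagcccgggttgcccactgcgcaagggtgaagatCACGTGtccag
Cdk6, chr5:3343643-3343892, plus strand: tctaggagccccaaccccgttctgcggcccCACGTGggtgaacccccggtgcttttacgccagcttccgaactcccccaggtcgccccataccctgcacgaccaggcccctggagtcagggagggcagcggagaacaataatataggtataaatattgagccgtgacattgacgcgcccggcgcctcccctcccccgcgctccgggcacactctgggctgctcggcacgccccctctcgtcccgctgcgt
Cdkn1b, chr6:134920151-134920400, plus strand: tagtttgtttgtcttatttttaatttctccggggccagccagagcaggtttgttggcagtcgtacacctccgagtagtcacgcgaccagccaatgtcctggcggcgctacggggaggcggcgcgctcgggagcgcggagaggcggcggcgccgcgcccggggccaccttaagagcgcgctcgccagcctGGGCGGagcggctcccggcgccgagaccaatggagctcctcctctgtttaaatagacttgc
Ccnd3, chr17:47504801-47505050, plus strand: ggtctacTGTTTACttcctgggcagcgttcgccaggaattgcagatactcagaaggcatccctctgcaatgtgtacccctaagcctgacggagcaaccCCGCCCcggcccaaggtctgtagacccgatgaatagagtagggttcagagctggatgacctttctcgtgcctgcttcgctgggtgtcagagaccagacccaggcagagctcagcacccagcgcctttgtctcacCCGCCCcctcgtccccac
The Cdk4 window held 4 E-boxes, the nearest at bases 11 to 6 before the start, and the Cdk6 window held 1. The other start of Ccnd3 had 1 Sp1 match and 0 forkhead matches. An E-box was present in 6.02% of 32851 windows of this length, and 4 or more were present in 7 of them (0.0213%). The Sp1 motif was in 32.7% of the windows, the forkhead motif in 3.17%, AP-1 in 4.46% and any of the E2F motifs in 1.53%. A match describes the letters of the window and no binding was measured.

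From 0 h to 4 h in sham cells Ccnd1, Ccnd2, Ccne1, Cdk6 and Myc rose and Ccnd3, Cdkn1b and, on its main probe, Cdk4 were lower, and in nsPEF cells the same 5 rose while Ccnd3, Cdkn1b and Cdkn1c fell. In sham 8 of 10 genes were called, where the share over all tested probes was 59.1%, and in nsPEF 8 of 10, where it was 61.3%. The groups did not overlap for 8 genes in sham (57.4% of the probes) and for 8 in nsPEF (55.8%). Most probes of the array were thus called between these times, and the counts for these genes are read against that. Over both treatments time was significant for 8 genes, all but Ccne2 (adjusted p = 0.682) and Cdk4 (adjusted p = 0.0774), against 80.2% of all probes.

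**Figure D1:**
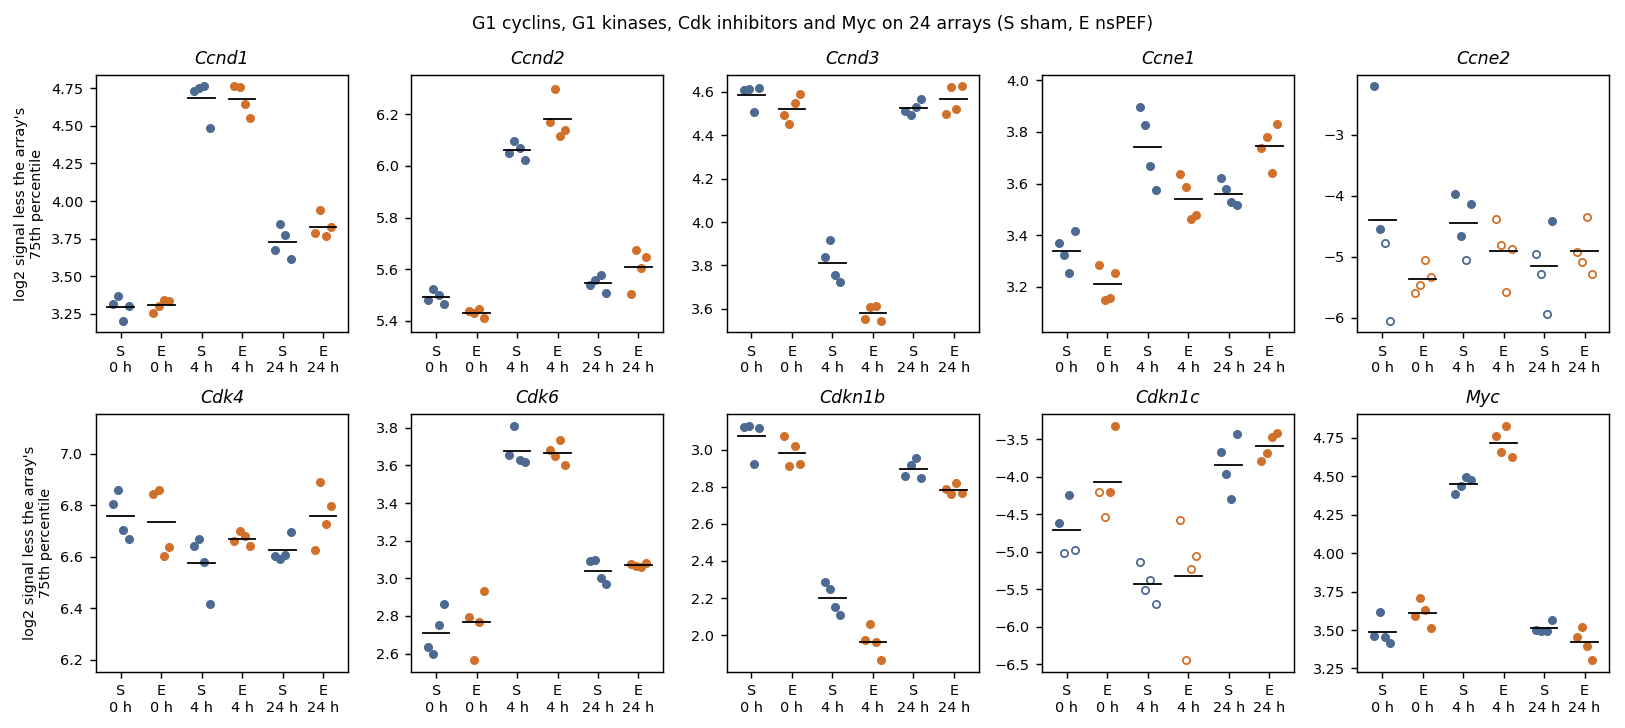
Values of the 10 genes on each array, as log2 processed intensity less the array's 75th percentile, with a panel for each gene, by time point and treatment (S sham, E nsPEF); points are arrays, open where the probe was not well above background, and short lines are group means. Ccnd1, Ccnd2, Cdk6 and Myc are highest at 4 h and Ccnd3 and Cdkn1b lowest, and the 4 h arrays do not overlap those of 0 h in any of these panels.

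Ccnd1, the D cyclin best known to follow growth factor signals, stood at 3.32, 3.37, 3.20 and 3.30 in sham at 0 h, at 4.73, 4.75, 4.76 and 4.49 at 4 h and at 3.67, 3.85, 3.78 and 3.62 at 24 h. With nsPEF its values were 3.25, 3.30, 3.35 and 3.33, then 4.76, 4.76, 4.64 and 4.55, then 3.78, 3.94, 3.77 and 3.82. All 4 h arrays lay above all 24 h arrays, which in turn lay above all 0 h arrays, and at each time sham and nsPEF overlapped. The rise to 4 h was 1.38 ± 0.068 in sham (2.61-fold, adjusted p = 4.7e-13) and 1.37 ± 0.068 in nsPEF (2.58-fold, adjusted p = 5.21e-13), the largest log2 increase among the 10 genes in either treatment.

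Ccnd2, a D cyclin whose transcription responds to Myc in several cell types, rose by 0.57 ± 0.0432 in sham (1.48-fold, adjusted p = 4.3e-10) and by 0.75 ± 0.0432 in nsPEF (1.68-fold, adjusted p = 5.21e-12). Its sham arrays went from 5.48, 5.52, 5.50 and 5.46 at 0 h to 6.05, 6.10, 6.07 and 6.02 at 4 h, and its nsPEF arrays from 5.44, 5.43, 5.45 and 5.41 to 6.17, 6.30, 6.12 and 6.14. The spread within each group was small beside the rise, and the 4 h nsPEF arrays were all above the 4 h sham arrays. Its other probe rose by 0.50 and 0.64.

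Ccnd3, the D cyclin that is common in differentiated tissues, moved the other way. Its values in sham were 4.61, 4.61, 4.51 and 4.62 at 0 h, 3.84, 3.92, 3.76 and 3.72 at 4 h, then 4.51, 4.49, 4.53 and 4.57 at 24 h. In nsPEF they were 4.49, 4.45, 4.55 and 4.59 at 0 h, 3.55, 3.61, 3.61 and 3.55 at 4 h, then 4.50, 4.62, 4.52 and 4.63 at 24 h. The 4 h arrays were below every array of the other times, and the lowest 4 h sham array was above the highest 4 h nsPEF array. The fall was by 0.78 ± 0.0483 in sham (1.71-fold lower, adjusted p = 1.86e-11) and by 0.94 ± 0.0483 in nsPEF (1.92-fold lower, adjusted p = 8.77e-13), and on its other probe by 0.72 and 0.83. Within the D cyclins 2 genes thus rose and 1 fell in both treatments, and the directions at 4 h held under every scaling tried.

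Ccne1, the cyclin that activates Cdk2 late in G1, stood at 3.37, 3.32, 3.25 and 3.42 in sham at 0 h, 3.90, 3.83, 3.67 and 3.57 at 4 h, then 3.62, 3.58, 3.53 and 3.52 at 24 h. In nsPEF the values were 3.28, 3.15, 3.16 and 3.25, then 3.64, 3.59, 3.46 and 3.48, then 3.74, 3.78, 3.64 and 3.83. Sham was highest at 4 h and nsPEF at 24 h, with overlap between 4 h and 24 h in sham and none in nsPEF. The rise to 4 h was 0.40 ± 0.0658 in sham (1.32-fold, adjusted p = 2.28e-05) and 0.33 ± 0.0658 in nsPEF (1.26-fold, adjusted p = 0.000201). Ccne2, the other E cyclin, was well above background on only 6 arrays, 2 of sham at 0 h, 3 of sham at 4 h and 1 of sham at 24 h, so that it passed the filter through sham alone. Its values ran from -6.05 to -2.21 among sham arrays and from -5.59 to -4.36 among nsPEF arrays, and no comparison called it with all samples included. Sham values of -4.66 at 4 h and -4.55 at 0 h passed as well above background. Higher nsPEF values of -4.38 at 4 h and -4.36 at 24 h did not, so the mark does not compare sham with nsPEF.

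Cdk4, the kinase of the D cyclins, ranged from 6.42 to 6.89 over all 24 arrays on its main probe, and there its groups overlapped in every comparison of 4 h with 0 h. It fell by 0.18 ± 0.07 in sham (adjusted p = 0.0307), and the value in nsPEF was -0.07 ± 0.07 (adjusted p = 0.43). Its 4 probes did not move alike. The second fell by 0.23 in sham (adjusted p = 0.000721) and by 0.18 in nsPEF (adjusted p = 0.00505), without overlap in either. The third gave -0.03 and 0.04 without a call. The fourth gave 0.09 in sham (adjusted p = 0.168) and rose by 0.13 in nsPEF (adjusted p = 0.0377), there without overlap. The mean of its probes gave -0.09 in sham (adjusted p = 0.165), so its probes gave no common direction. The sham call was also lost with all probes in the test (adjusted p = 0.057), under spike-in scaling (adjusted p = 0.142) and with only the sham arrays of the 2 times (adjusted p = 0.0739). Without sham replicates 1 or 2 at 0 h or 3 or 4 at 4 h, or without any replicate number in all groups, its adjusted p lay between 0.0516 and 0.124.

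Cdk6, the other kinase of the D cyclins, went from 2.63, 2.60, 2.75 and 2.87 in sham at 0 h to 3.65, 3.81, 3.63 and 3.62 at 4 h, and from 2.79, 2.57, 2.77 and 2.93 in nsPEF to 3.68, 3.65, 3.73 and 3.60. The lowest 4 h array was far above the highest 0 h array in both treatments. The rise was 0.97 ± 0.0694 in sham (1.95-fold, adjusted p = 1.75e-10) and 0.90 ± 0.0694 in nsPEF (1.87-fold, adjusted p = 4.93e-10), and its other probes rose by 0.93 and 0.88 in sham and by 0.71 and 0.91 in nsPEF.

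Cdkn1b, the inhibitor p27, had 1 probe. In sham it stood at 3.12, 3.13, 2.92 and 3.12 at 0 h, 2.29, 2.25, 2.15 and 2.11 at 4 h, then 2.86, 2.92, 2.95 and 2.85 at 24 h. With nsPEF it stood at 3.07, 2.91, 3.02 and 2.92 at 0 h, 1.98, 2.06, 1.96 and 1.87 at 4 h, then 2.79, 2.76, 2.82 and 2.77 at 24 h. The order of the group means was the same in both treatments, 0 h above 24 h above 4 h, and at 4 h and at 24 h the nsPEF arrays lay below the sham arrays without overlap. The fall to 4 h was by 0.87 ± 0.0569 in sham (1.83-fold lower, adjusted p = 3.84e-11) and by 1.02 ± 0.0569 in nsPEF (2.02-fold lower, adjusted p = 3.44e-12).

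Cdkn1c, the inhibitor p57 and an imprinted gene, was near the detection limit and was well above background on 12 of 24 arrays. These were 2 of 4 in each treatment at 0 h, 0 of 8 at 4 h and 8 of 8 at 24 h. Cdkn1c thus passed the filter only through 0 h and 24 h, where it was higher, so its p values against 4 h are no support. They come from the measured values and not from the bounds given below. Its values were -4.62, -5.02, -4.25 and -4.98 in sham at 0 h, -5.13, -5.52, -5.37 and -5.70 at 4 h, then -3.67, -3.96, -4.30 and -3.44 at 24 h. In nsPEF they were -4.20, -4.53, -4.20 and -3.32, then -4.58, -6.44, -5.23 and -5.06, then -3.80, -3.68, -3.47 and -3.42. It was lowest at 4 h and highest at 24 h in both treatments, and since no 4 h array was well above background its level there is only bounded. Where a fold is given as at least a value, the dim arrays were set to no less than the lowest signal that was well above background on the same array. So set, the 4 h arrays averaged -5.14 in sham and -4.55 in nsPEF, and the bounds of sham and nsPEF are not compared. In nsPEF Cdkn1c was lower at 4 h than at 0 h by 1.26 on measured values (adjusted p = 0.00161), and 1.40-fold lower with the 4 h arrays so set. That fold is no lower bound, since 2 of 4 arrays at 0 h were not well above background either. Normexp background correction took this call away (-0.13, adjusted p = 0.474). In sham it was 1.34-fold lower so set, again no lower bound, and not called (adjusted p = 0.0565), although 7 of 15 other settings and 5 of 28 omissions of samples called it. At 24 h it was at least 2.46-fold higher than at 4 h in sham (adjusted p = 0.000199) and at least 1.94-fold higher in nsPEF (adjusted p = 7.9e-05). With normexp this rise was 0.39 on the log2 scale in sham (adjusted p = 0.0225), a smaller fold than that bound, and 0.20 in nsPEF without a call (adjusted p = 0.261).

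Myc stood at 3.46, 3.62, 3.46 and 3.41 in sham at 0 h, 4.39, 4.43, 4.49 and 4.47 at 4 h, then 3.50, 3.49, 3.49 and 3.56 at 24 h. Its nsPEF arrays read 3.59, 3.71, 3.63 and 3.51 at 0 h, 4.76, 4.66, 4.83 and 4.62 at 4 h, then 3.46, 3.52, 3.40 and 3.31 at 24 h. Every 4 h array was above every array of 0 h and 24 h, and the 4 h nsPEF arrays were all above the 4 h sham arrays. The rise was 0.96 ± 0.0588 in sham (1.94-fold, adjusted p = 1.49e-11) and 1.11 ± 0.0588 in nsPEF (2.16-fold, adjusted p = 1.46e-12), and its other probe rose by 1.09 and 1.32.

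**Figure D2:**
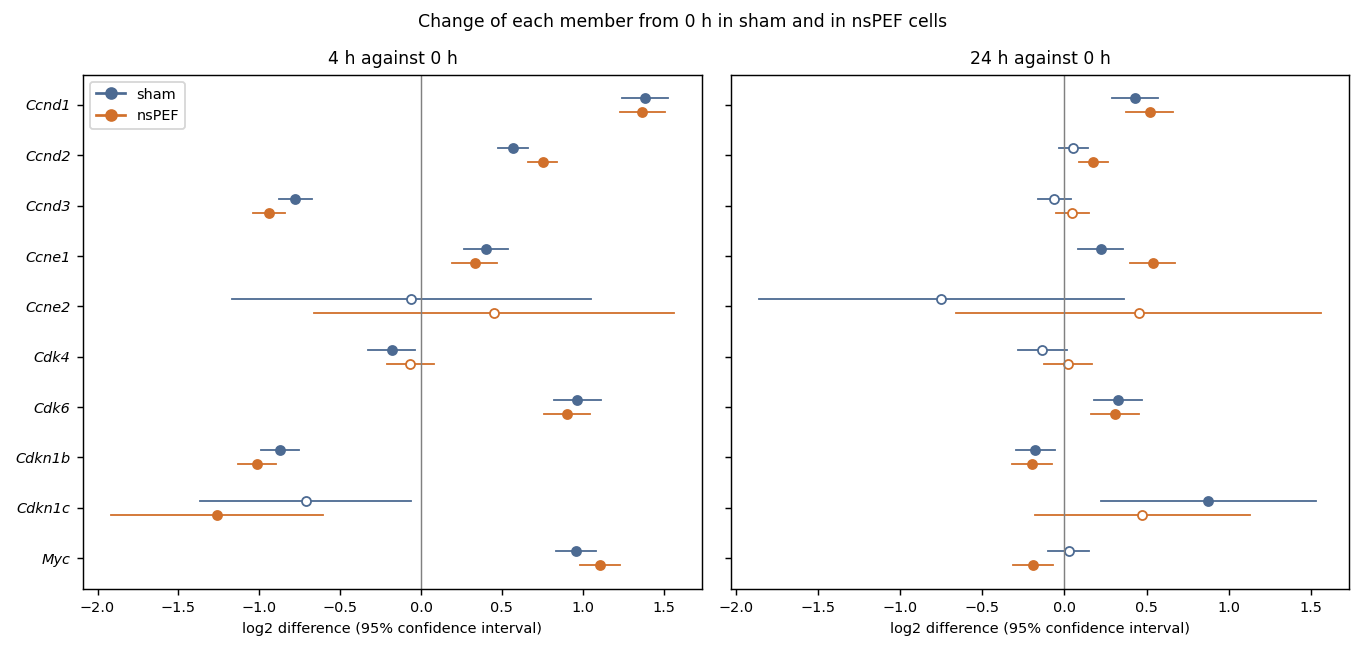
Log2 differences of the 10 genes from 0 h to 4 h and to 24 h in sham and in nsPEF cells; points are limma estimates from 4 arrays in each group, bars are 95% confidence intervals, and filled points were called. The 4 h differences of the genes well above background on all arrays range from 1.38 for Ccnd1 in sham to -1.02 for Cdkn1b in nsPEF, those of the dim Ccne2 and Cdkn1c are measured values and not bounds, and the 24 h differences are smaller for most of the genes.

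From 4 h to 24 h most of the genes that had changed moved back towards 0 h, except Ccne1 in nsPEF, which rose further, and Cdkn1c, whose group means passed those of 0 h. Between these times 8 of 10 genes were called in sham (57.7% of all probes; 7 without overlap, against 55.5%) and 8 in nsPEF (56.6%; 8 without overlap, against 50.3%). In sham and in nsPEF, Ccnd1 fell by 0.95 and 0.85, Ccnd2 by 0.51 and 0.58, Cdk6 by 0.64 and 0.60, and Myc by 0.93 and 1.30. Ccnd3 rose by 0.72 and 0.99 and Cdkn1b by 0.70 and 0.82. Ccne1 fell by 0.18 in sham (adjusted p = 0.0235), with overlap, and rose by 0.21 in nsPEF (adjusted p = 0.0111). The sham fall of Ccne1 was -0.0052 by quantile normalization (adjusted p = 0.961), -0.017 with the percentile over probes well above background on all arrays (adjusted p = 0.819) and -0.09 with centring (adjusted p = 0.225). It was also lost with only the groups compared (adjusted p = 0.0883) and without sham replicate 1 or 2 at 4 h, 3 or 4 at 24 h or replicate 1, 2 or 3 of all groups (adjusted p from 0.0539 to 0.143). The nsPEF rise was lost without replicate 2 or 4 of all groups (adjusted p = 0.0553 and 0.071).

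Against 0 h, 5 of 10 genes were called at 24 h in sham (36.6% of all probes; 3 without overlap, against 42.2%) and 6 in nsPEF (42.2%; 5 without overlap, against 38.4%). Ccnd1 remained higher by 0.43 ± 0.068 in sham (adjusted p = 4.96e-05) and by 0.52 ± 0.068 in nsPEF (adjusted p = 4.72e-06). Cdk6 was higher by 0.33 ± 0.0694 (adjusted p = 0.000953) and 0.31 ± 0.0694 (adjusted p = 0.00148), and Ccne1 by 0.22 ± 0.0658 (adjusted p = 0.0126) and 0.54 ± 0.0658 (adjusted p = 2.08e-06). On these probes the arrays of 24 h and 0 h did not overlap in either treatment. The other probes of Cdk6 were weaker: the second gave 0.24 in sham (adjusted p = 0.107) and 0.13 in nsPEF (adjusted p = 0.389), and the third was higher by 0.38 in sham (adjusted p = 0.00949) and gave 0.23 in nsPEF (adjusted p = 0.0909). The sham call of Ccne1 was lost without replicate 2 or 3 of all groups (adjusted p = 0.0867 and 0.0787).

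Cdkn1b was lower by 0.18 ± 0.0569 in sham (adjusted p = 0.0188), with overlap, and by 0.20 ± 0.0569 in nsPEF (adjusted p = 0.00864). The nsPEF call was lost without replicate 1 of all groups (adjusted p = 0.0734). Ccnd2 gave 0.05 (adjusted p = 0.355) in sham and rose by 0.18 in nsPEF (adjusted p = 0.00276), while its other probe rose in both, by 0.12 (adjusted p = 0.0449) and by 0.16 (adjusted p = 0.0082). In sham the main probe of Ccnd2 was also called by quantile normalization (0.19), spike-ins (0.75), the percentile over probes well above background on all arrays (0.10) and centring within rows and signal classes (0.13). Myc gave 0.02 (adjusted p = 0.788) in sham and fell by 0.19 in nsPEF (adjusted p = 0.0129), with overlap, whereas its other probe gave -0.02 there (adjusted p = 0.892). Ccnd3 gave -0.06 and 0.05 and Cdk4 -0.13 and 0.02, none of them called on the main probe. In nsPEF the second probe of Ccnd3 rose by 0.12 (adjusted p = 0.0496), with overlap, and the fourth of Cdk4 by 0.25 (adjusted p = 0.000649), without. Cdkn1c was higher in sham by 0.88 (adjusted p = 0.034), with overlap, a measured difference against 0 h arrays of which 2 of 4 were not well above background, and normexp turned that value to -0.015. Without sham replicate 1, 2 or 4 at 0 h or replicate 1 at 24 h, neither Cdkn1b (adjusted p from 0.0504 to 0.0558) nor Cdkn1c (adjusted p from 0.0525 to 0.0907) was called in sham. Cdkn1c was also lost without replicate 2 or 4 at 24 h (adjusted p = 0.0504 and 0.0998). Without replicate 4 at 0 h the dim Ccne2 was called instead (-1.30, adjusted p = 0.0452), as it was without replicate 4 of all groups (-1.54, adjusted p = 0.0484). Quantile normalization (adjusted p = 0.0557 and 0.0748) and centring (adjusted p = 0.168 and 0.066) took both calls away too.

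The 24 h directions are relative to the other transcripts. Scaling on the added spike-in RNA raised the median of all tested probes by 0.70 from 0 h to 24 h in sham and by 0.48 in nsPEF, but moved it by 0.05 and 0.08 at 4 h. On that scale the values at 24 h against 0 h turned to 0.52 in sham and 0.28 in nsPEF for Cdkn1b, to 0.29 in nsPEF for Myc, and to 0.63 for Ccnd3 and 0.56 for Cdk4 in sham. For the step between 4 h and 24 h in sham cells, where the median of all probes moved by 0.65, the values became 0.14 for Ccnd2, 0.47 for Ccne1 and 0.012 for Cdk6 (adjusted p = 0.916).

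The question of the exposure is whether nsPEF cells differed from sham cells of the same time and slide. At 0 h 0 of 10 genes were called by limma (0.127% of all probes), and 1 passed an unadjusted p under 0.05, Myc (0.12, unadjusted p = 0.0495, adjusted p = 0.499), where 10% of all probes did. Only Ccnd2 had groups without overlap (-0.06, adjusted p = 0.709), against 8.61% of the probes.

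At 4 h Myc was higher and Ccnd3 and Cdkn1b were lower in nsPEF, 3 of 10 genes against 3.31% of all probes. The genes were chosen with earlier results of these data known, and each is counted by its brightest probe. Counts of the 10 genes therefore describe and support nothing. The per-array values at 4 h, given above, did not overlap for these 3 genes or for Ccnd2 (4 of 10 genes, against 13.8%). For each, the exact permutation test, two-sided, gave p = 0.0286, the smallest that 4 arrays against 4 allow. Any such groups without overlap give that value, so it adds nothing to the overlap. Myc was higher by 0.27 ± 0.0588 (1.21-fold, 95% confidence interval 0.15 to 0.39, adjusted p = 0.0174). Ccnd3 was lower by 0.23 ± 0.0483 (1.17-fold, interval -0.33 to -0.13, adjusted p = 0.0156), and its other probe by 0.21 (adjusted p = 0.0223). Cdkn1b was lower by 0.23 ± 0.0569 (1.18-fold, interval -0.35 to -0.12, adjusted p = 0.0295). Each of these differences was smaller than the change with time of the same gene and had the same sign. On the second probe of Myc the difference was 0.19 (adjusted p = 0.36), and the mean of both probes gave 0.23 (adjusted p = 0.086).

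These calls depend on few arrays. With only the 8 arrays of 4 h in the model, 0 of the 3 were called (adjusted p = 0.119 for Myc, 0.145 for Ccnd3 and 0.168 for Cdkn1b, with the differences unchanged). Without sham replicate 1 or without nsPEF replicate 3 at 4 h, 1 gene was called, Ccnd3. Cdkn1b was also lost without sham replicate 2 or nsPEF replicate 4 at 4 h (adjusted p = 0.0773 and 0.0858). Without replicate 1, 2 or 3 of all groups 0 were called, and without replicate 4 it was Myc alone. Over all such omissions the difference of Myc stayed between 0.24 and 0.31, that of Ccnd3 between -0.26 and -0.19 and that of Cdkn1b between -0.26 and -0.20. On the spike-in scale, which raised the median of all probes by 0.19 in this comparison, Myc was higher by 0.46 (adjusted p = 0.00244), Ccnd3 gave -0.04 (adjusted p = 0.717) and Cdkn1b -0.04 (adjusted p = 0.711). With the percentile over probes well above background on all arrays, Cdkn1b gave -0.18 and was not called (adjusted p = 0.0569).

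The nsPEF arrays had fewer probes well above background than the sham arrays of the same slide: 52.6% to 57.0% in nsPEF and 57.5% to 59.6% in sham at 0 h, 51.2% to 56.0% and 57.7% to 62.1% at 4 h, and 52.4% to 57.2% and 59.0% to 61.0% at 24 h. Spots marked as not uniform numbered 62 to 138 in nsPEF and 36 to 81 in sham at 0 h. At 4 h they numbered 180 to 347 and 52 to 73, and at 24 h 282 to 443 and 71 to 112. The 75th percentile of sham replicate 4 at 4 h was 533, where the other sham arrays of 4 h had 299 to 311. The part of these traits in the differences was not tested. With values centred within rows of spots and classes of signal, the differences at 4 h were 0.27 for Myc (adjusted p = 0.0225), -0.22 for Ccnd3 (adjusted p = 0.00818) and -0.24 for Cdkn1b (adjusted p = 0.0183).

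**Figure D3:**
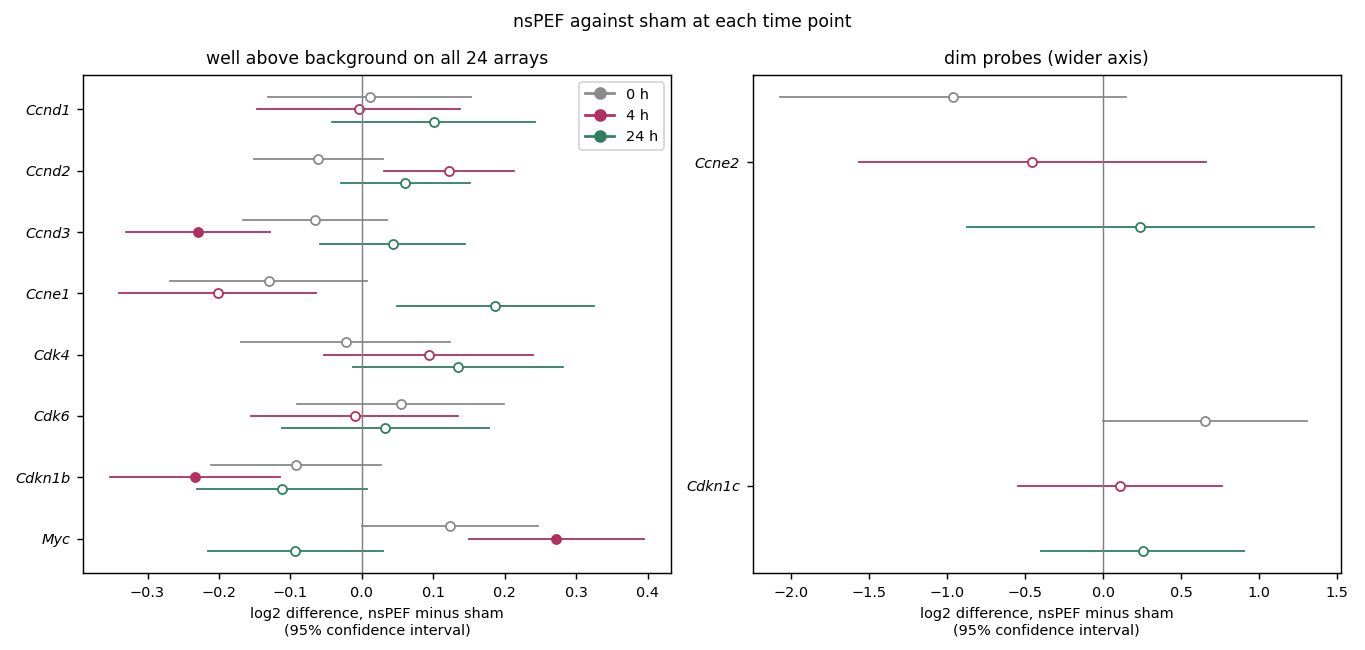
Log2 differences of nsPEF minus sham for the 10 genes at 0 h, 4 h and 24 h; points are limma estimates from 4 arrays in each group and bars are 95% confidence intervals. Filled points are called: Myc at 0.27, Ccnd3 at -0.23 and Cdkn1b at -0.23, all at 4 h.

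Of the other genes at 4 h, Ccnd2 gave 0.12 (interval 0.03 to 0.21, adjusted p = 0.118) and Ccne1 -0.20 (interval -0.34 to -0.06, adjusted p = 0.0908), with overlap for Ccne1. Ccnd1 gave -0.00 (interval -0.15 to 0.14), Cdk6 -0.01 (interval -0.15 to 0.14) and Cdk4 0.09 (interval -0.05 to 0.24). For these the intervals bound a difference at 4 h within 0.24 on the log2 scale relative to the 75th percentile. On the spike-in scale, with its shift of all probes, Ccnd2 (0.31, adjusted p = 0.00481) and Cdk4 (0.28, adjusted p = 0.0215) were called, and Ccnd2 also with the percentile over probes well above background on all arrays (0.18, adjusted p = 0.0216). Ccne1 was called with normexp (-0.27, adjusted p = 0.0445) and without sham replicate 4 at 4 h (-0.26, adjusted p = 0.0363). The intervals of the dim probes were wide, from -0.55 to 0.76 for Cdkn1c and from -1.57 to 0.66 for Ccne2.

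At 24 h 0 of 10 genes were called by limma (4.82% of all probes), and 1 passed an unadjusted p under 0.05, Ccne1 at 0.19 ± 0.0658 (unadjusted p = 0.0104, adjusted p = 0.102), where 22.1% of all probes did. The groups did not overlap for Ccne1 and for Cdkn1b (-0.11, adjusted p = 0.258), 2 of 10 genes against 13.9% of the probes. Averaged over all times, Cdkn1b was lower in nsPEF by 0.15 ± 0.0328 (adjusted p = 0.0128), and it was the only gene called of the 10, against 8.84% of all probes. Its values at the single times were -0.09, -0.23 and -0.11. This call was lost without replicate 1, 2 or 4 of all groups (adjusted p = 0.0651, 0.122 and 0.0577), with Myc called in the last case (0.14, adjusted p = 0.0496), and on the spike-in scale Cdkn1b gave -0.05 (adjusted p = 0.442).

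Whether the exposure acted differently at different times was tested directly. The interaction of treatment and time was called for 0 of 10 genes by limma (0.377% of all probes), with 4 at an unadjusted p under 0.05 (16.7% of all probes), Ccne1 (adjusted p = 0.0866), Myc (adjusted p = 0.0869), Ccnd3 (adjusted p = 0.116) and Ccnd2 (adjusted p = 0.229). Between 4 h and 24 h the effect of nsPEF changed by -0.37 ± 0.0831 for Myc (adjusted p = 0.0593), by 0.39 ± 0.0931 for Ccne1 (adjusted p = 0.0692) and by 0.27 ± 0.0683 for Ccnd3 (adjusted p = 0.0799), and 0 genes were called by limma (0.448% of all probes), with these 3 at an unadjusted p under 0.05 (14.6% of all probes). Myc was called under 9 of 14 other settings, Ccne1 under 4, among them the replicate block (adjusted p = 0.0476), and Ccnd3 under 3. The plain analysis of variance and array weights, which keep the 75th percentile and all samples, called each of these 3 genes. In the limma fit used for the calls, an effect seen at 4 h is thus not shown to differ from that at 24 h for any of the 10 genes. That result depends on the setting.

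**Figure D4:**
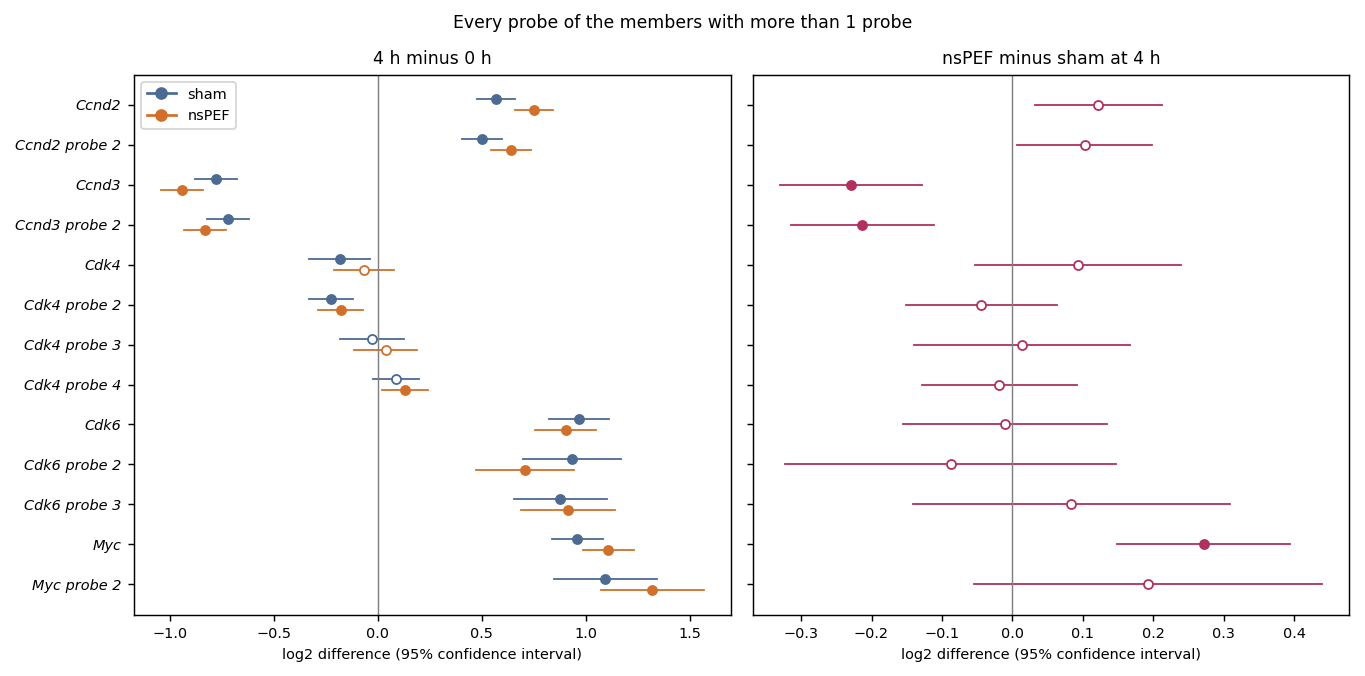
Log2 differences from 0 h to 4 h for every probe of the 5 genes with more than 1 probe, in sham and in nsPEF cells, and differences of nsPEF minus sham at 4 h; bars are 95% confidence intervals and filled points were called. In the time panel the probes of Ccnd2, Ccnd3, Cdk6 and Myc lie on the same side of 0 as their partners, and those of Cdk4 lie on both sides, from -0.23 to 0.13.

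Related genes of the pathway were counted from lists chosen with earlier results of these data known, so that the counts describe and support nothing. Of 84 such genes tested, 26 rose and 38 fell from 0 h to 4 h in sham (76.2%, against 59.1% of all probes), and 0 were higher and 3 lower in nsPEF than in sham at 4 h (3.57%, against 3.31%).

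Among the other Cdk inhibitors 1 of 4 rose and 2 fell in sham. Cdkn1a (p21), an inhibitor induced by p53, rose by 1.58 ± 0.0729 (adjusted p = 1.89e-13), while Cdkn2d (p19) fell by 1.80 ± 0.0573 (adjusted p = 6.13e-16) and Cdkn2c (p18) by 0.85. Cdkn2d was also lower in nsPEF than in sham at 4 h by 0.38 (adjusted p = 0.00269). The median of the list was -0.72 in sham, where that of all probes was -0.01.

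Of 13 genes of the Rb family and E2F factors, 3 rose and 6 fell in sham, with a median of -0.03. Rbl2 (p130), the pocket protein of resting cells, fell by 2.19 and E2f1 by 1.11, while E2f6 rose by 0.71 and Tfdp1 by 0.61. Of 17 textbook E2F targets 1 rose and 15 fell, with a median of -0.46 (14 fell on the spike-in scale), among them Tk1 by 1.51, Pola1 by 0.98, Mcm7 by 0.75 and Mcm6 by 0.68, genes of nucleotide supply and DNA replication. In nsPEF the counts were 1 and 15 as well, and 0 of these targets differed between nsPEF and sham at 4 h.

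Of 13 partners and antagonists of Myc, 6 rose and 5 fell in sham, with a median of 0.30. In nsPEF the counts were the same, with a median of -0.27. The 4 with the largest called change in sham were Max, the partner with which Myc binds the E-box, which rose by 1.29, and the antagonists Mxd3, Mxd1 and Mxd4. These antagonists fell by 1.91, 1.21 and 1.19. Of 11 textbook Myc targets 8 rose and 0 fell in sham, with a median of 0.68, and 9 rose and 0 fell in nsPEF. Rcc1 rose by 1.63, Odc1, the first enzyme of polyamine synthesis, by 1.31, Nop56 by 0.85 and Cdc25a by 0.84. Between nsPEF and sham at 4 h 0 of the 11 were called by limma. On the spike-in scale 6 were higher, where 6172 of all 37687 probes were called higher and the median of all probes moved up by 0.19.

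Ubiquitin ligase parts that act on G1 regulators were divided, with 4 of 11 higher and 4 lower in sham. Fbxw7, which marks cyclin E and Myc for degradation, rose by 0.96, Skp2, which marks Cdkn1b, by 0.78 and Cul1 by 0.52, and Fbxo31 fell by 0.87. Among Cdk2, the Cdk-activating kinase and Cdc25, 2 of 5 rose and 1 fell, with Cdk7 at 0.42 and Mnat1 at -0.76. Of 6 later cyclins and kinases 1 rose and 5 fell in sham, Ccnb2 by 0.96, Plk1 by 0.79, Cdk1 by 0.22 and Ccna2 by 0.22. In that list Plk1 (-0.24, adjusted p = 0.0205) and Ccnf (-0.21, adjusted p = 0.0416) were lower in nsPEF than in sham at 4 h, and the median of its 6 genes was -0.19. Spike-in scaling left 2 of the 5 falls in sham and 0 of these 2 calls, and it left 0 for Cdkn2d. Of the 6 tested neighbours of Cdkn1c in its imprinted domain 1 rose in sham, Slc22a18 by 0.44, and 1 fell, Cd81 by 0.48.

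**Figure D5:**
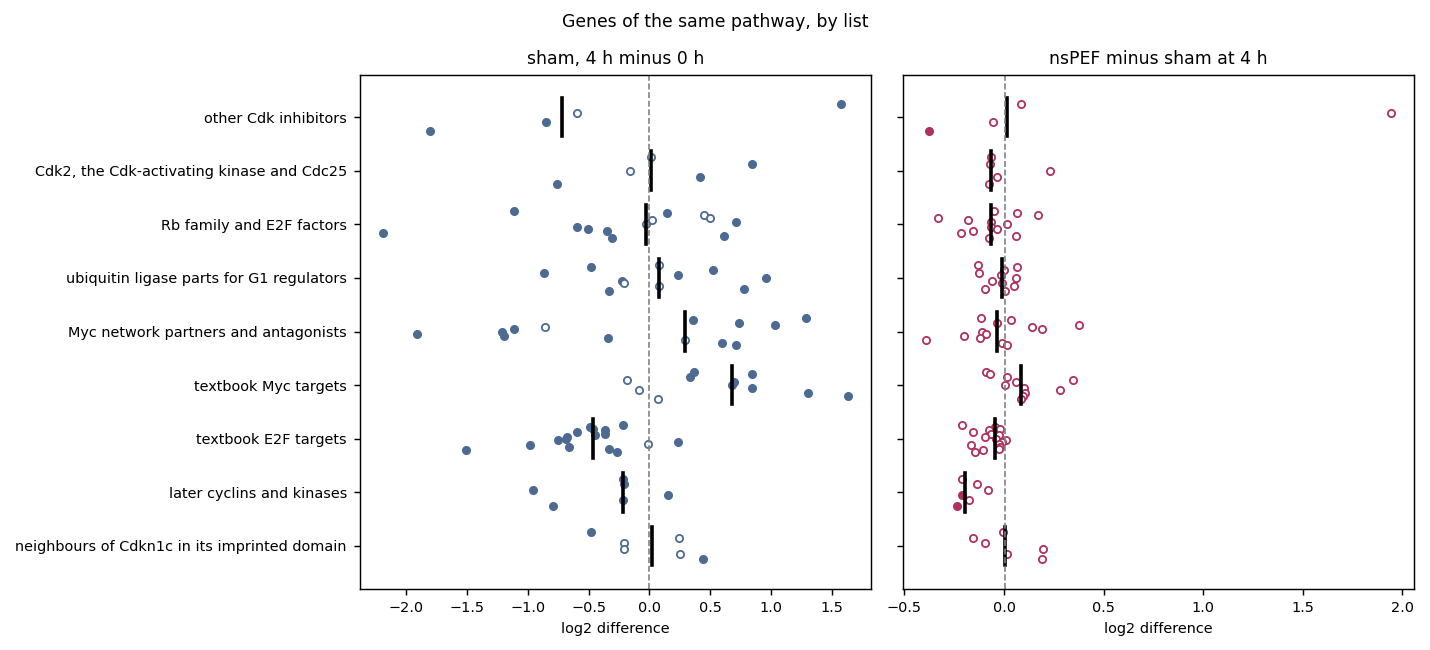
Log2 differences of the related genes, with a row for each list, from 0 h to 4 h in sham and for nsPEF minus sham at 4 h; each point is the main probe of 1 gene, filled where called, the vertical bar of a row is its median, and the dashed line is the median of all tested probes. The point farthest to the right for nsPEF minus sham is Cdkn2b at 1.94, named after its value was seen, a dim probe that was not called (adjusted p = 0.387).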

How the data were processed

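Single-colour Agilent arrays were read by the authors with Agilent Feature Extraction 12.0, and per the file headers the deposited spot values are processed intensities, background-subtracted and detrended by that software and not scaled between arrays. The authors' table of the whole series holds deposited log2 values, scaled by shifting each array's 75th percentile and centred on each probe's median, and was used as an alternative. Unused columns of sample values numbered 0. Control spots and spots marked as outliers by the software were left out, the others of a probe were averaged, and the 75th percentile of the 56605 probe values was subtracted on the log2 scale. Saturated spots numbered 0, and 0 pairs of arrays held identical values.

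The files were read with the data.table package, version 1.17.8, in R 4.3.3, and 6 group means were fitted to all 24 arrays with limma 3.58.1, following the filter and factors of the methods, with slide left out because it equals time. The procedure was tested on simulated data. The number of arrays limits the precision. The 10 genes, the gene lists and the tests were chosen with earlier results of these data known. Every probe of the 10 genes was analysed. From each list of related genes at most 4 were named, those with the largest called change to 4 h in sham, and at most 2 for nsPEF against sham at 4 h. Alternatives were quantile normalization, scaling on 6 spike-in probes, percentiles over other probes or over spots (chosen after seeing the data), normexp with an offset of 50, no filter or a filter on 4 of 4 arrays, marked spots kept, the deposited table, centring within 16 bins of rows and 3 classes of signal, a plain analysis of variance, a replicate block, array weights, only the groups compared, the mean of a gene's probes, and each sample or replicate number left out.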

Additional observations from a re-analysis of the deposited data

Results flagged for a closer look

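Within 60 groups of 4 arrays, 5 held an array whose gap to its nearest neighbour took up an unusually large part of the range of the group by Dixon's test at the 95% level, where chance alone gives about 1 in 20. For Ccnd1, replicate 4 of sham at 4 h was lowest, at 4.49 against 4.73 to 4.76, with 0.878 of the range in the gap. Replicate 3 of sham at 0 h was lowest for both Ccnd3 (4.51 against 4.61 to 4.62, 0.901 of the range) and Cdkn1b (2.92 against 3.12 to 3.13, 0.935 of the range). Replicate 4 of sham at 24 h was highest for Cdk4 (6.70 against 6.59 to 6.61, 0.850 of the range) and for Myc (3.56 against 3.49 to 3.50, 0.906 of the range). All of these arrays are sham, and leaving any of them out kept the calls of Ccnd1, Ccnd3, Cdkn1b and Myc from 0 h to 4 h.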

How the results depend on the processing

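Of 5537 values of single genes under other settings, 5355 stayed on their side of the threshold, 1927 of them called with their direction kept, 3302 not called with their sign kept and 126 not called with their sign changed. A further 87 passed the threshold only there, 86 lost it with the direction kept and 9 changed sign where either value was called. The 4 h calls against 0 h of Ccnd1, Ccnd2, Ccnd3, Ccne1, Cdk6, Cdkn1b and Myc held in both treatments under every setting. Changed signs on the spike-in scale were 0.63 for Ccnd3, 0.56 for Cdk4 and 0.52 for Cdkn1b from 0 h to 24 h in sham, 0.28 for Cdkn1b and 0.29 for Myc in nsPEF, and 0.14 for Ccnd2, 0.47 for Ccne1 and 0.012 for Cdk6 from 4 h to 24 h in sham. Normexp gave -0.015 for Cdkn1c from 0 h to 24 h in sham. The causes were not tested.

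The 5 genes called from 0 h to 24 h in sham became 9 by spike-ins and 3 by normexp, and 3 to 5 with samples left out. Of all 37687 probes, 13786 were called in the limma fit used for the calls, 28720 by spike-ins (98.1% of them higher) and 11762 by normexp. The 3 called for nsPEF against sham at 4 h became 0 with only the groups compared, at most 4 under the other settings, and 0 to 4 with samples left out. Which genes were called there changed too. By spike-ins and by the percentile over probes well above background on all arrays Cdkn1b was lost and Ccnd2 gained. Spike-ins also lost Ccnd3 and gained Cdk4, and normexp gained Ccne1. The 0 at 24 h became 1 (Ccne1) with the percentile over probes well above background on all arrays, where the calls over all probes went from 1816 to 1863. The 1 over all times became 3 by spike-ins, without the filter and with array weights, 2 by quantile normalization, both other percentiles, marked spots kept, the deposited table and the plain analysis of variance, and 0 to 3 with samples left out. Over all probes the 3332 calls of that comparison became 5275 by spike-ins, 15828 of 56605 without the filter and 5464 with array weights. For the counts of interactions and of differences between times, shares over all probes under other settings are not given. The 0 interactions became 1 by spike-ins, 3 with array weights and 0 to 1 with samples left out. The 0 differences of the nsPEF effect between times became 3 with centring, the plain analysis of variance and array weights, 2 by spike-ins, 1 by quantile normalization, both other percentiles, marked spots kept, the deposited table and the replicate block, and 0 to 3 with samples left out.

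The study describes the tests of a biological replicate as run on a shared suspension, while the labels give only a number. The deviations of same-numbered sham and nsPEF samples correlated at r from -0.047 to 0.0998, with 0 of 12 pairs over 0.1, and the numbers were not taken as pairs. Yet 14 of 24 samples correlated best with their own number, so the data do not settle whether these samples are pairs. The replicate block moved no other count by over 1.5 times. Over all probes, nsPEF against sham at 4 h gave 1248 calls, of which 51.6% were higher, but 2229 (16.5%) by quantile normalization, 6244 (98.8%) by spike-ins, 1401 (68.7%) by normexp, 1771 (34.4%) in the deposited table, 10286 (86.9%) without the filter and 352 (89.5%) with only the groups compared. The dim probes of Ccne2 and Cdkn1c and the small nsPEF differences are where 4 arrays a group limit what can be seen.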

Other observations

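The genes whose pattern over the 24 arrays was most like that of each gene were found among 12246 genes well above background on all arrays, by Pearson's r of log2 values, as a description, since the arrays share the time groups. For Ccnd1 these were Nudt4 (r = 0.995) and Ddx21 (r = 0.994), for Ccnd2 Timm9 and Tbpl1 (both r = 0.989), for Ccnd3 Morn4 and Tcf19 (both r = 0.992) and for Ccne1 Zmat3 (r = 0.914) and Cptp (r = 0.912). For Cdk6 they were Peak1 (r = 0.986) and Igf2bp1 (r = 0.984), for Cdkn1b Zfp212 and Mgat3 (both r = 0.99) and for Myc Fosl2 (r = 0.988) and Sat1 (r = 0.984). The values were lower for Cdk4, with H2aj (r = 0.922) and H2ac19 (r = 0.915), for Cdkn1c, with 3110070M22Rik (r = 0.887) and Vmn1r204 (r = 0.877), and for the dim Ccne2, with Mapkbp1 (r = 0.663) and Apc (r = 0.653).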
